A study of Mus musculus with 66 samples.

Results

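The comparison described here set iMSN-D2RKO against WT mice in the dark hours of the day on which they had received cocaine. It used the 18 of the 66 libraries of the study that came from mice given 20 mg/kg cocaine intraperitoneally at ZT3 and killed at ZT15, ZT19 or ZT23, where ZT0 is lights on. There were 9 iMSN-D2RKO and 9 WT libraries, 3 per genotype and time point, and all 14245 of the 24138 entries of the gene table that reached 1 FPKM in at least 1 of these libraries were tested. FPKM divides the fragments of a gene by its length and by the size of the library, so levels of different genes can be set side by side.

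The study followed gene expression of the nucleus accumbens (NAcc), the ventral part of the striatum, around the clock after saline or cocaine. The mice were males on a C57BL/6 background, 3 to 5 months old, and each library was made from a frozen tissue punch. iMSN-D2RKO mice carry D2R flox/flox and D1R-CRE, a Cre under the D1R promoter. That promoter is mostly silent in adult indirect pathway medium spiny neurons (iMSNs) but active in their embryonic precursors, so D2R is lost from iMSNs during development. D2R of other cells is kept, and whether the WT mice carried floxed alleles is not given in the sources used here.

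Medium spiny neurons make up most of the striatum and fall into 2 kinds. Those of the direct pathway (dMSNs) express the dopamine D1 receptor, which raises cAMP, and those of the indirect pathway express the D2 receptor, which lowers it. Cocaine blocks the dopamine transporter, so both receptors see more dopamine, and transcription of neuropeptides and activity-regulated genes in these neurons follows their cAMP and calcium signals.

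Libraries were compared before genes. Over the 66 libraries and 9584 genes with a mean above 5 FPKM, 45.1% of the variance of log2(FPKM + 1) lay on 1 axis, and 13 libraries scored at 46.8 or more on it. Of the 18 libraries used here, 5 were set apart in this way, namely WT ZT19 replicates 1 and 3 (53.7 and 54.4), WT ZT23 replicate 3 (52.1), iMSN-D2RKO ZT15 replicate 3 (52.9) and iMSN-D2RKO ZT23 replicate 1 (57.0). WT ZT19 replicate 2 scored 25.8, between these and the rest, of which none of the 66 was above -1.21. At ZT19 all 3 WT libraries were thus above all 3 iMSN-D2RKO libraries, which scored -12.1 to -7.99, and there the axis and the genotype cannot be told apart. In the 4 groups that held both kinds of library, the set-apart libraries had less RNA of 42 ribosomal protein genes (median log2 difference -0.54) and of 85 nuclear oxidative phosphorylation genes (-0.58). Between the genotypes the medians of these lists were 0.17 and 0.16 over the 18 libraries, and none of their genes was called.

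**Figure D1:**
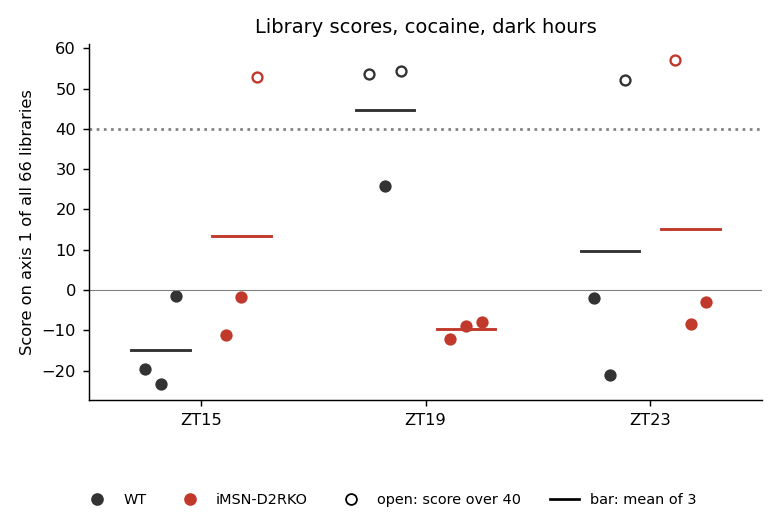
Score of each of the 18 libraries (y axis, no unit) by time point (x axis), WT in black and iMSN-D2RKO in red, with bars at the mean of 3. Open points lie above the dotted line at 40, and at ZT19 the WT libraries score 25.8 to 54.4 and the iMSN-D2RKO libraries -12.1 to -7.99.

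WT ZT15 replicate 3 stood apart on a further axis (14.5% of the variance) with a score of 57.3. WT ZT19 replicate 2, at -37.0, and WT ZT23 replicate 2, at -17.8, lay on its other side. The iMSN-D2RKO libraries scored -7.31 to 6.01 there. Total FPKM per library ran from 364078 to 458223 in WT and from 383376 to 411110 in iMSN-D2RKO, and 12625 to 13028 genes reached 1 FPKM. How many reads stand behind each FPKM is not known. The called genes and some others described below are given with and without the 5 set-apart libraries. The remaining genes are given over all 18 libraries only. Among these, Adora2a and Gabrd were lower in the set-apart libraries of ZT15 and ZT23 than in the others of the same groups.

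Drd2, the gene that was deleted, did not mark the mutants in these whole-gene values. Its FPKM ran from 99.1 to 304 in the 9 WT libraries, with a median of 173, and from 81.1 to 300 in the 9 iMSN-D2RKO libraries, with a median of 117. The ranges overlapped almost entirely, and the highest value of each genotype came from a set-apart library. The difference on the log2(FPKM + 1) scale was -0.34 ± 0.28 (SE; 95% interval -0.93 to 0.24; exact permutation test within time points, two-sided p = 0.266, 9 against 9). It was -0.34 without the 5 set-apart libraries as well, and 0.037 without ZT19. The table gives 1 value per gene and does not separate the deleted stretch from the rest of the transcript, so it does not check the genotype labels. In bulk tissue, fewer cells of a type and less RNA per cell cannot be told apart, here and in the results that follow.

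The striatal origin of the tissue was visible in all 18 libraries. Ppp1r1b, which encodes the phosphatase inhibitor DARPP-32 of medium spiny neurons, averaged 1110 FPKM, Penk averaged 1944 and Drd1 averaged 108.

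In the whole comparison 6 genes passed an adjusted p of 0.05 (limma on log2(FPKM + 1) with time point as a factor, Benjamini-Hochberg), which is 0.0421% of the genes tested. All 6 were higher in iMSN-D2RKO, and 0 were lower. With library weights in the fit 149 genes were called, 90 higher and 59 lower. With all 66 libraries in the fit 10 were called, 9 higher and 1 lower, so the one-sidedness of the calls depended on the fit. The 6 genes were Inhba, Fst, Anxa3, Pdlim3, Rln3 and Snx31, all protein-coding. On GRCm38, Inhba lies on chromosome 13 at 16004256 to 16031609 and Fst on the same chromosome at 114452262 to 114458989. Anxa3 lies on chromosome 5 at 96793385 to 96845968 and Snx31 on chromosome 15 at 36504062 to 36560129. Pdlim3 (45885487 to 45919635) and Rln3 (84043067 to 84044979) are both on chromosome 8. At an unadjusted p under 0.05 there were 302 genes, 2.12% of those tested, 118 higher and 184 lower. In 5 genes all 9 iMSN-D2RKO libraries were above all 9 WT libraries (0.0351% of the genes), and in 0 genes were they all below. Those 5 were the called genes other than Fst, and 2 of them, Rln3 and Snx31, passed the filter on low values only through iMSN-D2RKO libraries.

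The called pair of the activin pathway is described first. Activins are secreted dimers of the TGF-beta family that signal through receptor kinases and Smad proteins. Inhba encodes the beta A subunit of activin A and is induced by neuronal activity, and Fst encodes follistatin, a secreted protein that binds activin and blocks it.

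Inhba in WT was at 4.06, 2.63 and 7.35 FPKM at ZT15, at 3.40, 0.819 and 4.90 at ZT19 and at 5.71, 3.41 and 5.62 at ZT23. In iMSN-D2RKO it was at 10.1, 11.2 and 8.82 FPKM, then at 9.41, 11.6 and 9.11, then at 10.9, 11.1 and 11.3. No WT library reached the lowest iMSN-D2RKO library at any of the 3 time points, and the mutants varied less around their mean. The means were 4.21 ± 1.93 FPKM in WT and 10.4 ± 1.06 in iMSN-D2RKO (SD, n = 9), 2.47 times higher, and the log2 difference was 1.24 ± 0.20 (SE; adjusted p = 0.0258, limma). The exact permutation p was 0.00025, the smallest that 8000 arrangements of 9 against 9 can give. The lack of overlap alone fixes it at that value, so it adds no separate support. The call of Inhba was the least secure of the 6. Without any 1 of 11 libraries, namely WT ZT15 replicates 1 and 2, WT ZT19 replicate 1, WT ZT23 replicate 2, iMSN-D2RKO ZT15 replicates 1 and 2, all 3 of iMSN-D2RKO ZT19 and iMSN-D2RKO ZT23 replicates 2 and 3, its adjusted p rose to between 0.0518 and 0.0821. Without the 5 set-apart libraries the log2 difference of Inhba was 1.51 and its adjusted p 0.091.

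Fst in WT was at 1.68, 1.73 and 1.63 FPKM at ZT15, at 1.69, 1.62 and 2.89 at ZT19 and at 1.67, 1.82 and 1.95 at ZT23. In iMSN-D2RKO it was at 4.96, 3.95 and 5.84 FPKM, then at 3.16, 3.67 and 2.58, then at 5.66, 5.55 and 3.42. WT was flat apart from 1 library, the set-apart WT ZT19 replicate 3, and this library and iMSN-D2RKO ZT19 replicate 3 made the only overlap. The means were 1.86 ± 0.40 and 4.31 ± 1.21 FPKM (SD, n = 9), 2.32 times higher, and the log2 difference was 0.87 ± 0.13 (SE; adjusted p = 0.00997, limma). Without the 5 set-apart libraries it was 0.91 (adjusted p = 0.035).

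No other gene of the pathway passed the test. Of the 17 tested activin and follistatin genes, 15 did not pass an unadjusted p of 0.05, where 2.12% of all genes tested did. The median log2 difference of the list was 0.08 against -0.01 over all genes tested. The type I receptor gene Acvr1b, the most abundant of them, was at 34.0 ± 8.30 FPKM in WT and 36.5 ± 3.73 in iMSN-D2RKO (SD, n = 9).

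**Figure D2:**
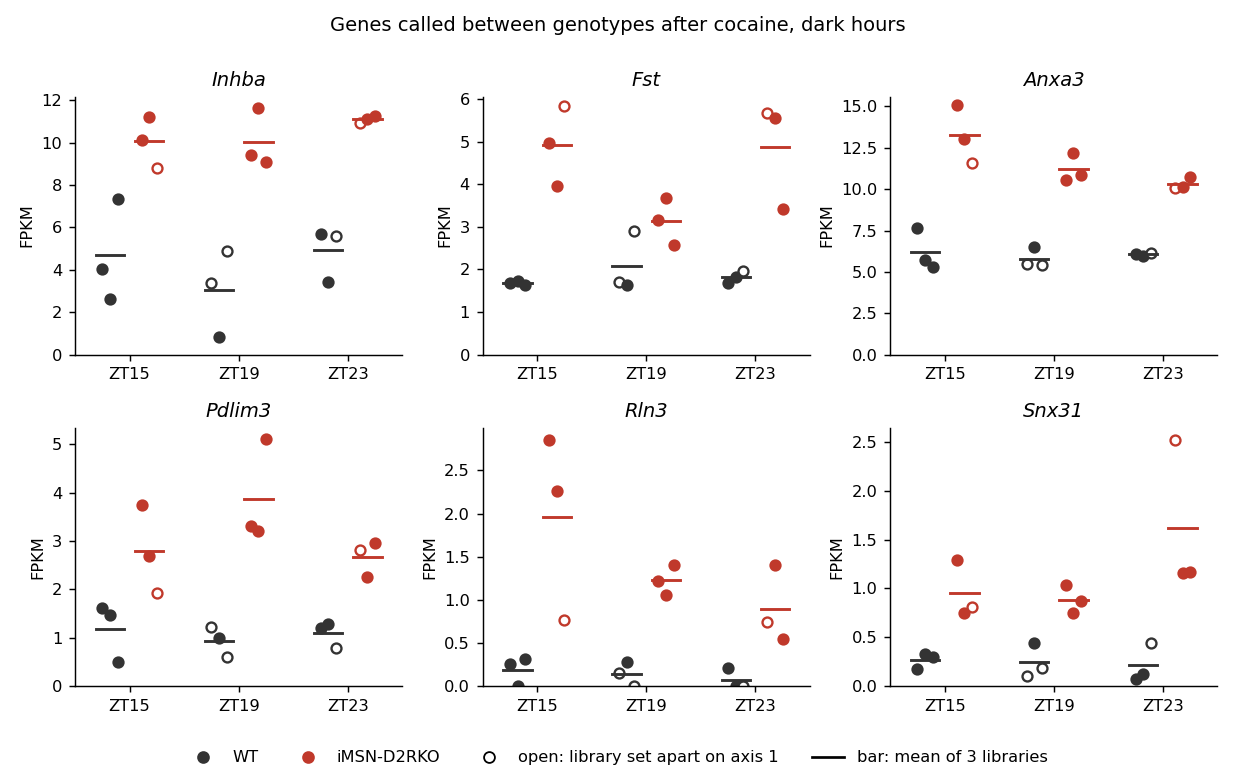
FPKM (y axes, linear, from 0) of the 6 called genes in each of the 18 libraries by time point (x axes), with WT in black, iMSN-D2RKO in red, bars at the mean of 3 libraries and open points for set-apart libraries. In Inhba, Anxa3, Pdlim3, Rln3 and Snx31 every red point lies above every black one, and in Fst 1 black point at ZT19 (2.89) is above 1 red point (2.58).

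Anxa3, which encodes annexin A3, a calcium-dependent phospholipid-binding protein, had the smallest p. WT libraries were at 7.65, 5.72 and 5.31 FPKM at ZT15, at 5.48, 6.51 and 5.42 at ZT19 and at 6.09, 5.96 and 6.17 at ZT23. Those of iMSN-D2RKO were at 15.1, 13.1 and 11.6, then at 10.5, 12.2 and 10.8, then at 10.1, 10.1 and 10.7 FPKM. The groups were clearly separate at each time point. The means were 6.03 ± 0.72 and 11.6 ± 1.65 FPKM (SD, n = 9), 1.92 times higher, and the log2 difference was 0.84 ± 0.086 (SE; adjusted p = 0.000281, limma). It was 0.85 without the 5 set-apart libraries (adjusted p = 0.035), and no single library, when left out, brought the adjusted p of Anxa3 above 0.00155.

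Pdlim3 encodes a PDZ and LIM domain protein of the actin cytoskeleton. Its lowest, median and highest values were 0.491, 1.21 and 1.62 FPKM in WT and 1.93, 2.95 and 5.10 in iMSN-D2RKO. The log2 difference was 0.98 ± 0.14 (SE; adjusted p = 0.00997, limma), and 0.95 without the set-apart libraries (adjusted p = 0.11). Rln3, which encodes the neuropeptide relaxin-3 and is best known from a pontine nucleus, and Snx31, which encodes a sorting nexin of endosomes, averaged below 1 FPKM and are named because the called genes were so few, after their values had been seen. Rln3 was listed at 0 in 4 of the 9 WT libraries and reached 0.309 FPKM at most there, against 0.545 to 2.85 in iMSN-D2RKO (median 1.21; log2 difference 1.01 ± 0.14, SE; adjusted p = 0.00937, limma). Snx31 ran from 0.0727 to 0.444 FPKM in WT (median 0.187) and from 0.749 to 2.52 in iMSN-D2RKO (median 1.04; log2 difference 0.77 ± 0.12, SE; adjusted p = 0.0146, limma). Without the set-apart libraries their log2 differences were 1.12 and 0.70 (adjusted p = 0.0615 and 0.091). Leaving out iMSN-D2RKO ZT15 replicate 1 brought the adjusted p of Snx31 to 0.0516. Both genes reached 1 FPKM in iMSN-D2RKO libraries alone, so they entered the test through the group in which they are high, and with a mean of at least 1 FPKM required the calls were the other 4. With no filter on low values their adjusted p were 0.0138 for Rln3 and 0.0173 for Snx31. At such levels a handful of reads may decide a value, and how many there were is unknown.

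With the score on the first axis as a covariate, all 6 genes remained called and Shisa8 joined them. Without the 5 set-apart libraries, Anxa3 and Fst were called, and without WT ZT19 replicate 2 as well, 0 genes were (841 at an unadjusted p under 0.05, limma), with 2 time points left to compare.

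Promoter windows from RefSeq, from 250 bases before to 50 after the transcript start, were used here for 3 of the 6 called genes. The bases before the start are shown because these are the genes that were higher together, with matches to a cAMP response element (CRE, TGACGTCA), an E-box (CACGTG) or a D-box (TTATGTAA) on either strand in capitals. The windows lie on GRCm38.p6, which is mm10, at chr8:45885237-45885486 on the plus strand (Pdlim3), chr13:16011601-16011850 on the plus strand (Inhba) and chr8:84044980-84045229 on the minus strand (Rln3).
Pdlim3: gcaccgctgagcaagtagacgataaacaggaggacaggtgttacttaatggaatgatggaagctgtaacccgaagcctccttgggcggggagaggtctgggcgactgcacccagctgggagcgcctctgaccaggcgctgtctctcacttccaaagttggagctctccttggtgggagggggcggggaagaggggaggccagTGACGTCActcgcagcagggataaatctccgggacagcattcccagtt
Inhba: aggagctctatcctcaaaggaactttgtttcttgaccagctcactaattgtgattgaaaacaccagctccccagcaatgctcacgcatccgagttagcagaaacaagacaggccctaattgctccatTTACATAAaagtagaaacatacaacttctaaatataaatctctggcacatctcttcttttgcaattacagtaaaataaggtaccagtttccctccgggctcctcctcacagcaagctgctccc
Rln3: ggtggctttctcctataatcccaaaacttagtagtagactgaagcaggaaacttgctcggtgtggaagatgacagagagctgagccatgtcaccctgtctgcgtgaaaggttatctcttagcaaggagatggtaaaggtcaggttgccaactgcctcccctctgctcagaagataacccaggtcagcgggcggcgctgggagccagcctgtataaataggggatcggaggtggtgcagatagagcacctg
Pdlim3 had a CRE at 48 to 41 bases before the start, and the CRE reads the same on both strands and contains the shorter CRE core CGTCA. A CRE was in 1.79% and the core in 20.8% of all 32851 windows, and in 2.99% and 29.8% of the 13592 windows of the genes tested. Inhba had a D-box at 123 to 116 bases before the start, on the strand opposite to the gene, and 0.938% of all windows and 0.574% of those of the genes tested had one. The Inhba window lies within the span of the gene given above, so this transcript start is not the outermost one. The 250 bases shown for Rln3 had no match to these 3 motifs. None of the 3 windows matched the heat-shock element (in 0.603% of all windows), the DR1 element bound by PPAR and RXR (0.0396%) or the glucocorticoid response element (0.0487%) searched. Of 12 windows of 11 genes described in the text that were searched, 2 had a CRE, that of Pdlim3 and that of Cartpt, a gene that was not called, 112 to 105 bases before the start. The Cartpt window also lies within the span of its gene.

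None of the marker genes of the 2 kinds of spiny neuron was called, although Drd1 and Penk were with library weights in the fit (adjusted p = 0.000132 and 0.000883, limma). In the list of 8 dMSN markers the median log2 difference was 0.00 and 4 genes were above 0, and in that of 6 iMSN markers it was 0.12 with 4 above 0, where 45.8% of all genes tested were above 0. Without ZT19 the dMSN median was 0.16. Drd1 and Penk had the smallest p in each list and were the only members under an unadjusted p of 0.05. Of all genes tested, 2.12% were under that p.

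Drd1, the D1 receptor gene, ran from 56.7 to 114 FPKM in WT, with a median of 74.1, and from 108 to 163 in iMSN-D2RKO, with a median of 132. The overlap was confined to the top 2 WT libraries, both of ZT15, and the lowest mutant of ZT19. Within each time point no WT library reached a mutant one, which alone puts the exact permutation p of Drd1 at its floor. Its log2 difference of 0.67 ± 0.13 (SE) had an adjusted p of 0.0988 (limma), with an exact permutation p of 0.00025 for 9 against 9. Without the 5 set-apart libraries it was 0.80 (adjusted p = 0.11). Leaving out iMSN-D2RKO ZT15 replicate 3 or WT ZT19 replicate 3, both set apart, brought Drd1 under an adjusted p of 0.05 (0.0452 and 0.0281), as did a fit over all 66 libraries (0.00293). The other dMSN genes were close to equal, as Tac1, the precursor of substance P, at 276 ± 83.4 FPKM in WT and 263 ± 50.9 in iMSN-D2RKO (SD, n = 9).

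Penk encodes the enkephalin precursor of iMSNs, and was the most abundant gene of the list. It ran from 822 to 2277 FPKM in WT (median 1591) and from 1903 to 3012 in iMSN-D2RKO (median 2282), with overlap by 1 set-apart WT library of ZT19. The log2 difference was 0.75 ± 0.18 (SE) and the adjusted p 0.513 (limma). It was 1.29 at ZT15, 0.17 at ZT19 and 0.80 at ZT23, and the test of a difference between time points gave an adjusted p of 0.142. Without the set-apart libraries the difference of Penk was 0.84. Adora2a, the adenosine receptor gene that opposes D2R in iMSNs, was at 148 ± 65.6 FPKM in WT and 163 ± 41.0 in iMSN-D2RKO (SD, n = 9). The log2 difference of Adora2a was -0.55 at ZT15, 0.99 at ZT19 and 0.20 at ZT23, and -0.57 in the light hours after cocaine.

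**Figure D3:**
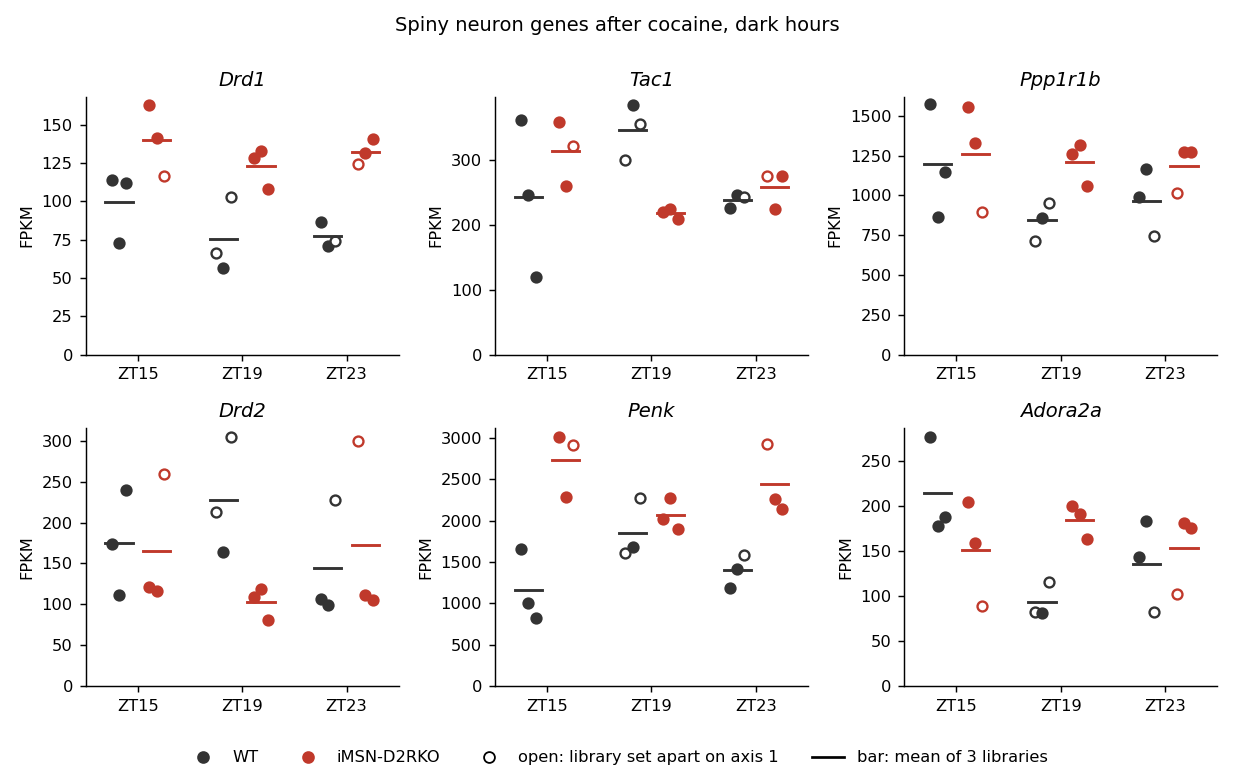
FPKM (y axes, linear, from 0) of 3 genes of direct pathway or all spiny neurons (top) and 3 of the indirect pathway (bottom) in each of the 18 libraries by time point, with WT in black, iMSN-D2RKO in red, bars at the mean of 3 and open points for set-apart libraries. Drd1 and Penk are higher in iMSN-D2RKO on average, while the Drd2 values above 200 FPKM include every open point.

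Of the other neuropeptide genes, Cartpt had the widest gap. It encodes the CART peptide and is a known target of cAMP signalling in the striatum. Its values were 7.94, 20.2 and 2.1 FPKM in WT at ZT15, 14.1, 51.5 and 7.31 at ZT19 and 10.8, 15.7 and 6.93 at ZT23. In iMSN-D2RKO they were 101, 27.5 and 41.8 FPKM, then 32.1, 24.7 and 23.9, then 22.8, 58.1 and 77.2. All mutant libraries were above 8 of the 9 WT libraries, and the WT ZT19 replicate 2 was above 6 of the 9 mutants. The log2 difference was 1.73 ± 0.44 (SE; adjusted p = 0.927, limma), so it was large but not called, and leaving out the 5 set-apart libraries gave 1.63. With library weights Cartpt was called (adjusted p = 0.000503, limma). Over the 18 neuropeptide genes the median log2 difference was 0.00, and Adcyap1, the PACAP gene, was lower in iMSN-D2RKO at an unadjusted p of 0.00813 (1.74 ± 1.02 FPKM in WT, 0.786 ± 0.448 in iMSN-D2RKO, SD, n = 9).

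Genes that neuronal activity induces include Inhba. The list of 24 such plasticity genes, like the other lists, was written with earlier results of these data known. Of these 24, Inhba was called, and 7 were higher and 0 lower at an unadjusted p under 0.05. The shares over all genes tested were 0.828% and 1.29%. Without Inhba, 0 of 23 were called and 6 were higher at that p. The list median was 0.16 with and without it. Gadd45b, which encodes a stress and activity-induced regulator of demethylation, was at 7.60 ± 3.79 FPKM in WT and 13.3 ± 4.70 in iMSN-D2RKO (SD, n = 9; log2 difference 0.77 ± 0.28, SE). Nptx2, which encodes a secreted pentraxin that clusters AMPA receptors and was chosen after its values were seen, was at 15.8 ± 9.54 and 31.8 ± 14.6 FPKM (SD, n = 9; log2 difference 0.996 ± 0.392, SE). Of the 16 immediate early genes, 7 were above and 9 below 0, with a median of -0.03, and 2 were higher and 0 lower at an unadjusted p under 0.05, Fosb and Fosl2. The median of these 16 ran from -0.21 to 0.20 when replicates or single libraries were left out. Under the other alternatives tried it ran from -0.41 to 0.32. Fosb was at 4.49 ± 1.15 FPKM in WT and 7.84 ± 3.28 in iMSN-D2RKO (SD, n = 9; log2 difference 0.62 ± 0.20, SE), while Egr1, the most abundant, was at 204 ± 120 and 159 ± 42.2. The highest Egr1 value, 491 FPKM, was that of the set-apart WT ZT19 replicate 3, with the next WT library at 266. None of these 4 genes was called, although with library weights Gadd45b and Nptx2 were (adjusted p = 0.0366 and 0.0264, limma). Much of the gap was in the ZT19 libraries. Without the 5 set-apart libraries the log2 differences were 0.86 for Gadd45b, 1.17 for Nptx2 and 0.74 for Fosb. Without ZT19 they were 0.37, 0.26 and 0.33, and at ZT19 genotype and library axis cannot be told apart.

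The clock genes gave no call. Of 19, 5 were above and 14 below 0, with a median log2 difference of -0.05. At an unadjusted p under 0.05, 0 were higher and 2 lower, where the shares over all genes tested were 0.828% and 1.29%. The 2 were Nr1d1 (61.8 ± 18.4 FPKM in WT, 47.6 ± 8.84 in iMSN-D2RKO, SD, n = 9) and Bhlhe40 (18.2 ± 3.48 and 15.7 ± 3.07), both transcriptional repressors. Per2 was at 19.4 ± 11.6 FPKM in WT and 15.2 ± 4.62 in iMSN-D2RKO, and Arntl at 16.0 ± 5.5 and 15.5 ± 2.90 (SD, n = 9). The highest Per2 value, 48.0 FPKM, was that of WT ZT15 replicate 3, with the next WT library at 23.9. Pparg, the nuclear receptor that the study followed after cocaine, stayed under 1 FPKM in all 18 libraries and was not tested. Among the genes measured as its targets, Kcnd1, a potassium channel gene, was at 4.17 ± 1.93 FPKM in WT and 3.83 ± 0.44 in iMSN-D2RKO, and Gabrd, a GABA-A receptor subunit gene, at 73.1 ± 26.9 and 86.0 ± 19.8 (SD, n = 9). The log2 difference of Gabrd was -0.23 at ZT15, 0.92 at ZT19 and 0.14 at ZT23, and -0.46 in the light hours after cocaine. Over the dark hours that of Kcnd1 was -0.040. The WT mean of Kcnd1 rested on WT ZT15 replicate 3 at 9.18 FPKM, and without that library it was 3.55 ± 0.49 FPKM (SD, n = 8) and the log2 difference 0.086.

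**Figure D4:**
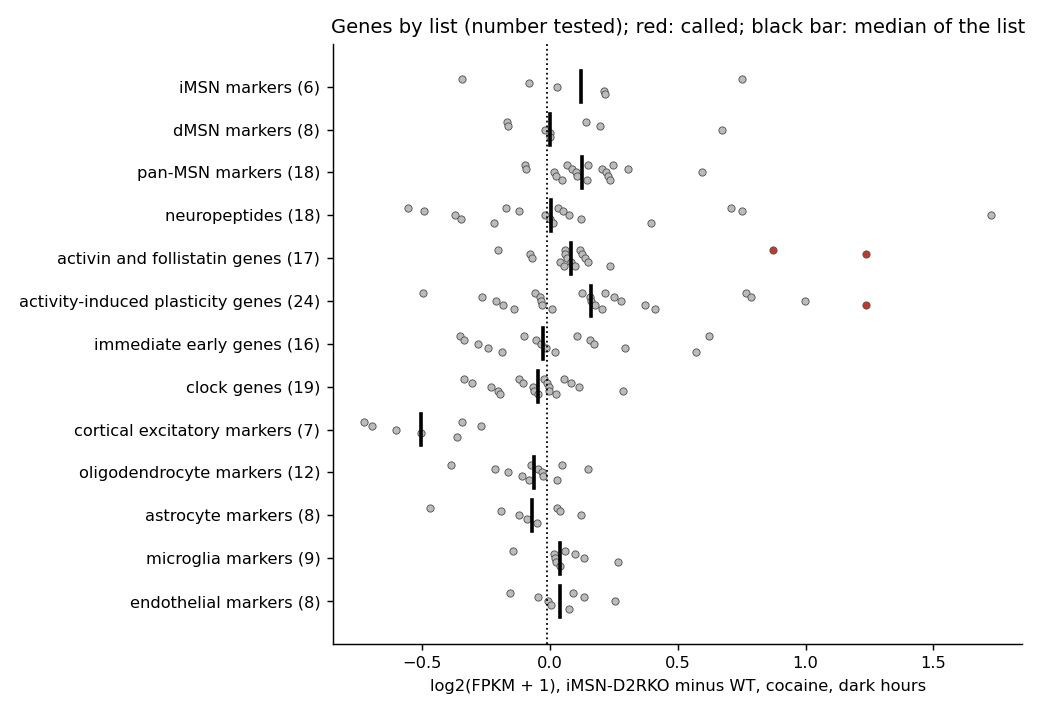
Difference in log2(FPKM + 1), iMSN-D2RKO minus WT (x axis), of each tested gene of 13 lists (rows, number tested in brackets). Red points passed an adjusted p of 0.05, black bars are list medians and the dotted line is the median of all genes tested, -0.01; the bar of the cortical markers lies at -0.51.

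Punches can hold tissue next to the NAcc, and markers of other cells were therefore summed. All 7 cortical excitatory markers had a difference below 0, with a median log2 difference of -0.51, and 3 of them were lower at an unadjusted p under 0.05, where 45.8% of all genes tested had a difference above 0 and 1.29% were lower at that p. Without the 5 set-apart libraries the median of the list was -0.26. Their summed level ran from 30.1 to 302 FPKM in WT (median 122) and from 4.19 to 197 in iMSN-D2RKO (median 91.5), led by Slc17a7, the vesicular glutamate transporter of cortex, at 1.78 to 233 FPKM. The log2 difference of Slc17a7 was -1.87 at ZT15, 1.25 at ZT19 and -0.90 at ZT23. None was at 0 in all 18 libraries. Of the 10 thalamus and hypothalamus markers 6 were tested, with 3 above and 3 below 0 and a median of 0.0018. Their summed level ran from 6.59 to 64.1 FPKM in WT and from 6.31 to 57.7 in iMSN-D2RKO. Oxt, the most abundant of them, had a log2 difference of -0.74. It was at 19.6, 39.1 and 8.69 FPKM in replicate 2 of WT ZT15, ZT19 and ZT23 and reached 8.87 in iMSN-D2RKO. The part of such tissue in the called genes and in Cartpt was not tested. Of the 12 oligodendrocyte markers 1 was lower at an unadjusted p under 0.05, and of the 8 astrocyte, 9 microglia and 8 endothelial markers 0 were in either direction, with list medians of -0.06, -0.07, 0.04 and 0.04. Of the 7 choroid plexus markers 4 were tested, with 2 above and 2 below 0 and a median of 0.03. The most abundant, Clic6, was at 6.24 ± 1.11 FPKM in WT and 8.36 ± 1.95 in iMSN-D2RKO (SD, n = 9; unadjusted p = 0.0101, limma). Ttr, which encodes transthyretin, reached 12.6 FPKM at most in WT and 53.6 in iMSN-D2RKO, with medians of 0.117 and 0.0789.

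Single time points, with 3 libraries per genotype, gave no call. At ZT15 0 genes passed an adjusted p of 0.05 and 2142 had an unadjusted p under 0.05, which is 15% of those tested; at ZT19 the counts were 0 and 4063 (28.5%), and at ZT23 0 and 273 (1.92%). The interaction of genotype with time gave 0 calls and 3689 genes (25.9%). With the library score as a covariate the counts at an unadjusted p under 0.05 were 2916 at ZT15, 686 at ZT19 and 567 at ZT23. That fit called 17 genes at ZT15, 13 higher and 4 lower, and 0 at ZT19 and ZT23. The 6 called genes were higher in iMSN-D2RKO at all 3 time points, Anxa3 by 0.99, 0.84 and 0.68 and Fst by 1.13, 0.45 and 1.04 on the log2 scale.

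The same genotypes were compared in libraries that the comparison had not used, to see how the genes behaved outside cocaine and darkness. In 9 against 9 saline libraries of the same 3 dark time points, 3 of 13994 genes were called (0.0214%; 630, or 4.5%, at an unadjusted p under 0.05). Fst was at 1.55 to 2.36 FPKM in WT and 2.90 to 5.39 in iMSN-D2RKO, and Snx31 at 0.0344 to 0.288 and 0.634 to 1.08. Neither gene overlapped between genotypes, and 0.0286% of all genes had every iMSN-D2RKO library above every WT one (log2 differences 0.69 ± 0.092 and 0.69 ± 0.070, SE; adjusted p = 0.00467 and 0.00033, limma). Snx31 reached 1 FPKM in iMSN-D2RKO libraries alone here too. The third was C920006O11Rik, a long noncoding RNA gene of chromosome 9, which was lower in iMSN-D2RKO (0.727 to 1.07 FPKM against 1.46 to 2.54, without overlap; adjusted p = 0.00224, limma). All iMSN-D2RKO libraries lay below all WT libraries in 0.00715% of the genes. After cocaine this RNA was at 0.406 to 1.55 FPKM in iMSN-D2RKO and 1.25 to 2.80 in WT, with a log2 difference of -0.64 ± 0.13 (SE; adjusted p = 0.218, limma). C920006O11Rik was called after cocaine with all 66 libraries in the fit (adjusted p = 0.000276) and with library weights (0.0259). Drd2 lies on chromosome 9 as well, at 49340360 to 49408177, and C920006O11Rik at 78175914 to 78178882.

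The other 4 called genes were also higher on average in saline. Anxa3 was at 3.46 to 7.17 FPKM in WT and 7.62 to 14.5 in iMSN-D2RKO, again without overlap (log2 difference 0.67 ± 0.13, SE; adjusted p = 0.108, limma). Inhba was at 3.51 to 5.49 and 4.25 to 12.5 FPKM, with a log2 difference of 0.79 ± 0.16 (SE; adjusted p = 0.175, limma). The log2 differences of Pdlim3 and Rln3 were 0.57 and 0.47, and those of Penk and Cartpt 0.63 and 1.99. The saline set held 7 set-apart libraries of 18. Without them, 6 WT against 5 iMSN-D2RKO libraries, Snx31 (0.72) and C920006O11Rik (-0.68) were still called, both with an adjusted p of 0.0247, and Fst was not (0.58; adjusted p = 0.0763). The log2 differences of Anxa3 and Inhba were then 0.72 and 0.65, that of Cartpt was 2.43 and that of Pdlim3 0.95 (adjusted p = 0.0602, limma). Without the libraries of any 1 replicate number 0 genes were called in saline, with 236 to 918 at an unadjusted p under 0.05.

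Whether the genotype gap differed between cocaine and saline was tested over the 36 dark libraries, and 0 of 14438 genes passed (200, or 1.39%, at an unadjusted p under 0.05, limma). The difference between the gaps, cocaine minus saline, was 0.44 for Inhba (95% interval -0.10 to 0.99), 0.17 for Anxa3 (-0.14 to 0.47) and 0.18 for Fst (-0.14 to 0.50). It was 0.54 for Rln3 (0.15 to 0.93) and 0.44 for Drd1 (0.10 to 0.78), both with an adjusted p of 0.998.

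After cocaine in the light hours, at ZT7 and ZT11, 0 of 13805 genes were called in 6 against 6 libraries (1407, or 10.2%, at an unadjusted p under 0.05, limma). The log2 differences of the 6 genes were all above 0, from 0.19 for Rln3 to 0.57 for Inhba, and Penk was at 0.61. Fosb and Nptx2 were at -0.093 and -0.083 there. The gap did not differ by phase for any of 14382 genes at an adjusted p of 0.05 (248, or 1.72%, at an unadjusted p under 0.05, limma), and for Inhba the dark gap was larger by 0.67 (95% interval 0.025 to 1.31; adjusted p = 0.866).

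**Figure D5:**
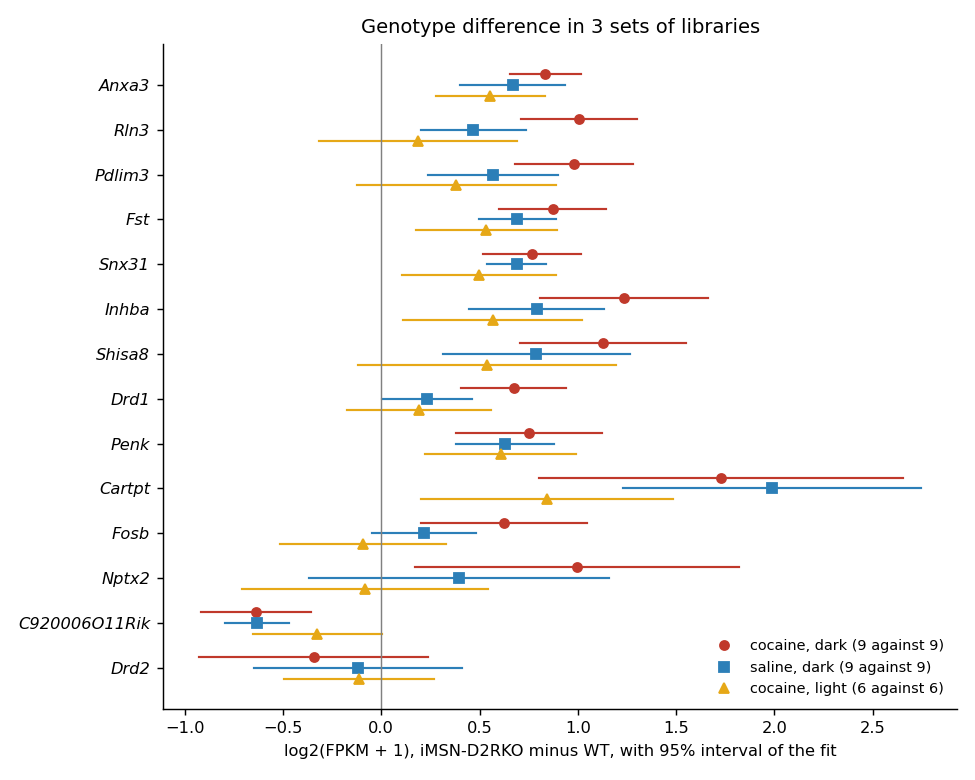
Difference in log2(FPKM + 1) between iMSN-D2RKO and WT (x axis) for 14 genes (rows), with the 95% interval of the fit, in the dark cocaine, dark saline and light cocaine libraries. Anxa3, Fst, Snx31, Inhba, Penk and Cartpt lie above 0 with their intervals in all 3 sets, and C920006O11Rik lies below 0 in all 3, with an interval that reaches 0.0034 in the light set.

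At ZT3, the time of injection, 3 libraries per genotype are listed in both the saline and the cocaine series, and their values are given without a test. Anxa3 was at 3.57 to 5.70 FPKM in WT and 6.74 to 9.93 in iMSN-D2RKO, Fst at 1.51 to 2.03 and 2.55 to 3.35 and Snx31 at 0.184 to 0.257 and 0.559 to 1.56. Pdlim3 was at 1.08 to 1.72 and 2.26 to 4.53 FPKM. These genes did not overlap between the genotypes, which with 3 against 3 libraries was so, in the same direction, for 7.77% of the 13366 genes that reached 1 FPKM there. Snx31 did so in iMSN-D2RKO libraries alone. Inhba, at 1.83 to 4.66 FPKM in WT and 4.51 to 4.72 in iMSN-D2RKO, overlapped.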

How the data were processed

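Poly(A) RNA of ventral striatum punches was sequenced by the authors as stranded, single-end libraries. Per the labels, CASAVA 1.8.2, Bowtie and Cuffnorm were used on mm10, and the methods of the study name TopHat and Cufflinks. The deposited values are FPKM per gene, scaled by Cuffnorm, for 24138 entries, of which 355 join several genes. Read counts were not used here. Among 8902 low values, 4.12% lay within 0.02 of a whole multiple of the lowest value of the gene, so depth could not be read from them and precision rests on the replicates.

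Genes that reached 1 FPKM in any library of a comparison were kept, and log2(FPKM + 1) was compared with limma 3.58.1 in R 4.3.3, with empirical Bayes moderation and a trend, time point as a factor and Benjamini-Hochberg adjustment over all genes tested. A gene was called at an adjusted p under 0.05. On this scale differences of genes of low FPKM are understated. Single genes were also compared by a two-sided exact permutation test within time points (8000 arrangements). The scripts were tested on simulated data. Lists were described by counts and medians and not tested. The labels do not say whether libraries of a group came from separate mice, so p-values measure the spread between these samples.

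Named were the genes that the study names, up to 15 called genes per direction with a mean of at least 1 FPKM, the called, 3 smallest-p and most abundant genes of each list, and 3 called genes of each other test. Shisa8, Pla2g4e and Nptx2, as well as Rln3 and Snx31, were added after their values were seen. The comparison, genes and lists were chosen with earlier results of these data known. Libraries were grouped by the labelled genotype, treatment and time. Alternatives were another pseudocount, filter, scaling, moderation, weights, replicate block, and the removal of replicates, libraries or time points. Leaving out the set-apart libraries and the library score as a covariate were added after the data were seen. Promoters and positions are those of RefSeq on GRCm38.p6, which gave a window for 11 of 16 genes searched and a position for all 150 named genes.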

Additional observations from a re-analysis of the deposited data

Results flagged for a closer look

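In 36 groups of 9 libraries, 3 values stood farther from the nearest other library than Dixon's 95% limit allows, where chance flags about 1 in 20 groups. Fst was at 2.89 FPKM in WT ZT19 replicate 3, with the next WT library at 1.95. Snx31 was at 2.52 FPKM in iMSN-D2RKO ZT23 replicate 1, with the next at 1.29. Both are set-apart libraries. Cartpt was at 51.5 FPKM in WT ZT19 replicate 2, with the next WT library at 20.2. What set these values apart was not tested.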

How the results depend on the processing

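The count of 6 genes in the dark cocaine comparison stayed within 1.5 times under 27 of 39 alternatives. It was 10 with all 66 libraries in the fit (1 of them lower in iMSN-D2RKO) and 149 with library weights (59 of them lower in iMSN-D2RKO, and with all 6 genes kept). It was 0 to 10 when replicates or single libraries were left out, with the 10 calls coming without iMSN-D2RKO ZT15 replicate 3 and none left without replicate 1 or 2 of every group. It was 1 without ZT15 (Anxa3), 1 without ZT19 (Fst) and 0 without ZT23 (324 at an unadjusted p under 0.05, limma). It was 2 without the 5 set-apart libraries and 0 without these and WT ZT19 replicate 2. The replicate block with 9 pairs left 1 call (Anxa3), and the block by number gave 7. Deviations of same-numbered libraries from their group means correlated at -0.68 to 0.56, and 3 of 9 pairs were over 0.1. Each mean was over 3 libraries, and the highest value, 0.83, was between set-apart ZT23 libraries of different number. These values cannot decide whether the numbers pair the samples. All 6 genes stayed above 0 under every alternative that could test them. Inhba also missed the threshold with a pseudocount of 0.1 (adjusted p = 0.0938) and without a filter (0.0706), and Snx31 with a pseudocount of 5 (0.0664). Drd2 changed sign without ZT19, to 0.037. The median of the dMSN markers moved from 0.00 to 0.19 with library weights, to 0.16 without ZT19 and to 0.23 without the 5 libraries and WT ZT19 replicate 2.

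At ZT15 the count of 0 became 1 with a mean of at least 1 FPKM (Anxa3), 17 with the library score as a covariate and 0 to 1 when replicates were left out. It became 0 to 3 at ZT19, 0 to 1 at ZT23 and 0 to 3 in the interaction with time when replicates were left out. The saline count of 3 became 53 with the score as a covariate, 8 without the set-apart libraries and 0 without any 1 of the replicates of every group. The treatment interaction, the light hours and the phase interaction stayed at 0 under all 10 alternatives each. The replicate block within time points left these other counts unchanged. Why counts moved was not tested. Unknown read depth limits what can be said of genes under 1 FPKM, and 5 set-apart libraries among 18 limit all counts.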

Other observations

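Of 23 genes of cholesterol synthesis, 21 had a difference below 0 in iMSN-D2RKO, with a median log2 difference of -0.096, and none reached an unadjusted p of 0.05, where 45.8% of all genes tested were above 0. Of 18 markers shared by all spiny neurons, 16 were above 0, with a median of 0.13 and 1 under an unadjusted p of 0.05. Over all genes tested 2.12% were under that p. When replicates or single libraries were left out, the median of the 18 markers ran from -0.025 to 0.32.

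Some genes that missed the threshold in the dark cocaine libraries had log2 differences of a size seen among those that passed. Of these, Shisa8 (log2 difference 1.13) and Pla2g4e both overlapped between the genotypes. Shisa8, which encodes an auxiliary protein of AMPA receptors and was chosen after its values were seen, was at 1.43 to 6.33 FPKM in WT (median 3.81) and 5.90 to 13.5 in iMSN-D2RKO (median 8.88), with an adjusted p of 0.0534 (limma). Shisa8 passed the threshold under 8 of 39 alternatives. At ZT3 it was at 5.07 to 6.44 FPKM in WT and 12.5 to 15.9 in iMSN-D2RKO, 3 libraries each.

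Pla2g4e, which encodes a cytosolic phospholipase A2 and was also chosen after its values were seen, was at 0.556 to 1.53 FPKM in all 9 WT libraries. In iMSN-D2RKO it fell into separate ranges, with 6 libraries between 4.35 and 7.99 FPKM and 3 between 0.637 and 1.03. The low libraries were ZT15 replicate 3 and ZT23 replicates 2 and 3, of which the first is set apart. The log2 difference was 1.18 ± 0.30 (SE; adjusted p = 0.927, limma). Without iMSN-D2RKO ZT15 replicate 3 Pla2g4e was called (adjusted p = 0.0453).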
